A study of Mus musculus with 20 samples.

Results

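The proteins of oxidative phosphorylation encoded in the nucleus were examined in RNA-seq data of 20 outer eyecups (RPE and choroid) of C57BL/6 mice. Genes were taken by symbol: every entry starting with Ndufa, Ndufb, Ndufc, Ndufs or Ndufv and a number, Sdha to Sdhd, and every entry starting with Uqcr, Cox4 to Cox8 or Atp5. In all, 84 symbols matched, and 82 reached the required summed value of at least 5 over the 20 libraries, out of 18745 genes that did so among 24411 in the table. The 2 genes left out, Cox7b2 and Cox8c, were listed at 0 in every library, while the lowest gene included, Cox7a1, summed to 2050 and the next, Atp5s, to 3038. By complex, 35 of the 82 belong to complex I, 4 to complex II, 8 to complex III, 18 to complex IV and 17 to complex V. Ndufa4 and its paralog Ndufa4l2 were counted with complex IV, where the Ndufa4 protein sits. Atp5sl, an assembly factor (RefSeq symbol Dmac2), and its relative Atp5s (Dmac2l) were included and counted with complex V by symbol alone. These 2 genes and Cox7a2l, which joins complexes III and IV and was also included by symbol, are not subunits of a complex in the strict sense. Cyc1 and Ndufab1 are subunits whose symbols do not match, and the subunits encoded by mitochondrial DNA were not analysed here.

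The mice were WT or Stra6-/-, lacking STRA6, the receptor through which the RPE takes up retinol from its carrier in blood, and stayed after weaning for 12 weeks on a vitamin A sufficient (VAS, 4 IU/g) or deficient (VAD, 0 IU/g) diet. Each of the 4 groups had 5 samples, and the study describes a sample as both eyecups of 1 mouse, from which the retina was peeled after dispase treatment. Values are gene counts that the authors divided by a size factor for each library. They are not scaled for transcript length. The question was how the transcripts of the respiratory chain and ATP synthase differed between genotypes and between diets.

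Oxidative phosphorylation takes electrons from NADH at complex I and from succinate at complex II, passes them through complex III and cytochrome c to oxygen at complex IV, and uses the proton gradient built on the way to make ATP at complex V. Complex II is also an enzyme of the tricarboxylic acid cycle. The RPE is known for a high mitochondrial content and for oxidizing fatty acids and lactate, which leaves glucose to the photoreceptors. Several small subunits of complex IV exist as a broadly expressed form and a form restricted to muscle, testis or other tissues, and the c subunit of ATP synthase is made as the same mature protein from 3 genes.

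Promoters of 68 of the 82 genes were found in RefSeq sequences of GRCm38.p6, each window running from 250 bases before to 50 bases after the start of transcription. Genes with no entry included Ndufs1, Sdhc, Uqcrc2, Uqcrb, Uqcrq, Atp5a1, Ndufa4l2, Cox4i1, Cox4i2, Cox6a2, Cox6c, Ndufa2 and Ndufb9. The 5 windows below are shown because the 3 c subunit genes and the pair Cox8a and Cox8b differed in their levels across the groups, as described further on. Capitals mark matches to the motifs searched on both strands: GCATGCG (NRF1), CCGGAAG (GABPA and other ETS factors), AAGATGG (YY1), AAGGTCA (the ERR family and other nuclear receptors) and TATAAA (the box bound by the TATA-binding protein).
Atp5g1, chr11:96075582-96075881, minus strand: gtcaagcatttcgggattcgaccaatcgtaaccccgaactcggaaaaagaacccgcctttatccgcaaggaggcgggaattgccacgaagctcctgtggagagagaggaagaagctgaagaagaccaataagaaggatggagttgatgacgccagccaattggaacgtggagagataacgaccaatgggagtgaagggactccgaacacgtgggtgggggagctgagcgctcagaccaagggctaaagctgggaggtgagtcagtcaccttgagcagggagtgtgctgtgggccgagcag
Atp5g2, chr15:102670998-102671297, minus strand: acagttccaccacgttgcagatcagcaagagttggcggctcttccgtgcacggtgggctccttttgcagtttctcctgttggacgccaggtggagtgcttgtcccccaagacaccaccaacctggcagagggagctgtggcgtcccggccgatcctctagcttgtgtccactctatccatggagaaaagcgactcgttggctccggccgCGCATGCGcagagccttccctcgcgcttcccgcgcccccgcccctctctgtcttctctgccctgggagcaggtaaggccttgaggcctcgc
Atp5g3, chr2:73911277-73911576, minus strand: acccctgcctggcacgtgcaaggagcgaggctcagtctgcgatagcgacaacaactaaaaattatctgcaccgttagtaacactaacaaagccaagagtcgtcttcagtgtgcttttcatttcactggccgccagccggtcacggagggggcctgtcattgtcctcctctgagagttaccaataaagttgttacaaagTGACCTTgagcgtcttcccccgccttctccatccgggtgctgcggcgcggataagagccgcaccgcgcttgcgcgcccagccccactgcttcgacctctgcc
Cox8a, chr19:7217567-7217866, minus strand: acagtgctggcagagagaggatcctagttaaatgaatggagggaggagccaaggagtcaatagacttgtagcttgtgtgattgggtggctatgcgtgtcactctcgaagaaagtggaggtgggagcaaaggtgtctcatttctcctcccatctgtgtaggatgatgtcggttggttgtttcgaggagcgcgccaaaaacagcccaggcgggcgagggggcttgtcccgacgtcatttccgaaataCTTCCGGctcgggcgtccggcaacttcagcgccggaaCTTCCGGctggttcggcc
Cox8b, chr7:140900397-140900696, minus strand: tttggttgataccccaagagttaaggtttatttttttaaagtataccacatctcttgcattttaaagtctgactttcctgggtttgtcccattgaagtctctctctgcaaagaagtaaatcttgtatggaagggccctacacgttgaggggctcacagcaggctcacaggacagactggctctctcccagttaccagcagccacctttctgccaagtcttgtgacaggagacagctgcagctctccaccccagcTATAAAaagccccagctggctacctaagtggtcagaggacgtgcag

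The window of Atp5g1 held none of the 5 motifs. That of Atp5g2 held the NRF1 letters on both strands in overlapping matches, first read at base 210, and that of Atp5g3 the ERR letters at base 199 on the strand opposite to the gene. Cox8a, the broadly expressed form of its subunit, had the ETS letters at bases 246 and 283. Cox8b, the form of heart and skeletal muscle, had the letters of the TATA box at base 255. Only the first 250 bases of a window precede the annotated start, so the matches at bases 255 and 283 lie after it. Over the 68 genes with a window, the NRF1 letters were found in 11 (16.2%, against 4.01% of 27025 genes with a window), the ETS letters in 16 (23.5% against 9.93%), the YY1 letters in 12 (17.6% against 7.28%), the ERR letters in 8 (11.8% against 5.38%) and the TATA box in 6 (8.82% against 15.7%). These are matches of letters only and were not measured as binding.

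Before the results, 4 properties of the libraries have to be given, since they touch all of them. Depth was 13331903 to 21878614 reads in the 19 libraries whose reads could be recovered from the values. Stra6 itself had 2591 ± 149 in VAS WT, 629 ± 49.8 in VAS Stra6-/- and 2163 ± 154 in the libraries labelled VAD Stra6-/- (mean ± SD, n = 5), so the last group goes against its label. In the group labelled VAD WT, replicates 1, 3 and 5 were near the level of VAS Stra6-/- and far below VAS WT, as given next. Directions that involve either deficient group are given for the libraries so labelled. Comparisons between the diets in Stra6-/- or in WT, and the interaction, also rest on these labels. Replicates 2 and 4 labelled VAD WT stood apart from replicates 1, 3 and 5: Stra6 was 1340.1 and 1529 in the former and 669 to 697 in the latter, the summed value of 10 cornea and surface epithelium genes 375366 and 377460.2 against 1090265 to 1122665, and that of 84 cytosolic ribosomal protein genes 779717 and 857565 against 1754145 to 1783622. Sex-linked transcripts also differed by group: Xist, expressed from the inactive X chromosome, was 7.69 to 38.4 in VAS WT and 15320.2 to 18052 in VAS Stra6-/-, and the Y-linked Ddx3y was 981 to 1193 and 0 to 1.02, so that sex and genotype on the VAS diet cannot be told apart. All 5 libraries labelled VAD Stra6-/- had both transcripts (Xist 3570 to 4280, Ddx3y 741 to 970), and of the group labelled VAD WT, replicates 2 and 4 had Xist at 10912 and 11767 with Ddx3y at 75.2 and 80.5. Both transcripts together would be unusual in 1 mouse. Whether each of these libraries holds RNA of 1 mouse, as the study describes, cannot be told from the values. The n, SDs, SEs and p-values that involve them rest on that description. Of tissue markers, 10 RPE genes summed to 124936 to 141121 in VAS WT, 39518 to 75630 in those labelled VAD WT, 135843 to 143297 in VAS Stra6-/- and 538539 to 584577 in the libraries labelled VAD Stra6-/-, whereas the cornea and surface epithelium genes summed to 556945 to 686437, 375366 to 1122665, 835735 to 868169.6 and 23110.4 to 30297. All 10 genes of each of these lists were above 0 in every library. Other lists differed as well. In the same order of groups, 8 rod genes summed to 131684 to 149658, 116318 to 303299, 151337 to 163813 and 82939 to 96067. For 6 fibroblast genes the sum was 38345 to 40718, 46688 to 149750, 37888 to 39229 and 193483 to 203684. For 6 macrophage genes it was 5127 to 5362, 3748 to 4306, 4713 to 5106 and 13244 to 14097. For 6 genes of mural cells of blood vessels it was 10564 to 11342, 8804 to 13310, 9881 to 10298 and 19123 to 21928. In bulk tissue, fewer cells of a type and less RNA per cell cannot be told apart, and the part of tissue makeup and sex in the differences below was not tested. Each p-value weighs a difference between groups against the spread between samples. In the main fit that spread was estimated over all 4 groups, including the divided group labelled VAD WT.

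Together the 82 genes made up about 1% of all values. Their share was 1.18% ± 0.062 in VAS WT, 1.15% ± 0.127 in those labelled VAD WT, 0.954% ± 0.040 in VAS Stra6-/- and 1.25% ± 0.025 in the libraries labelled VAD Stra6-/- (mean ± SD, n = 5). The VAS Stra6-/- libraries, at 0.886% to 0.987%, lay below all VAS WT libraries, at 1.12% to 1.27%. Within the group labelled VAD WT the share was 1.23% to 1.27% in replicates 1, 3 and 5 and 1.06% and 0.978% in replicates 2 and 4. Per kilobase of transcript, the highest mean levels in VAS WT were those of Cox4i1 (13406), Ndufa4 (11636) and Cox8a (10242), all of complex IV, and the lowest were those of Atp5s (109), Cox7a1 (255) and Ndufa4l2 (267).

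**Figure D1:**
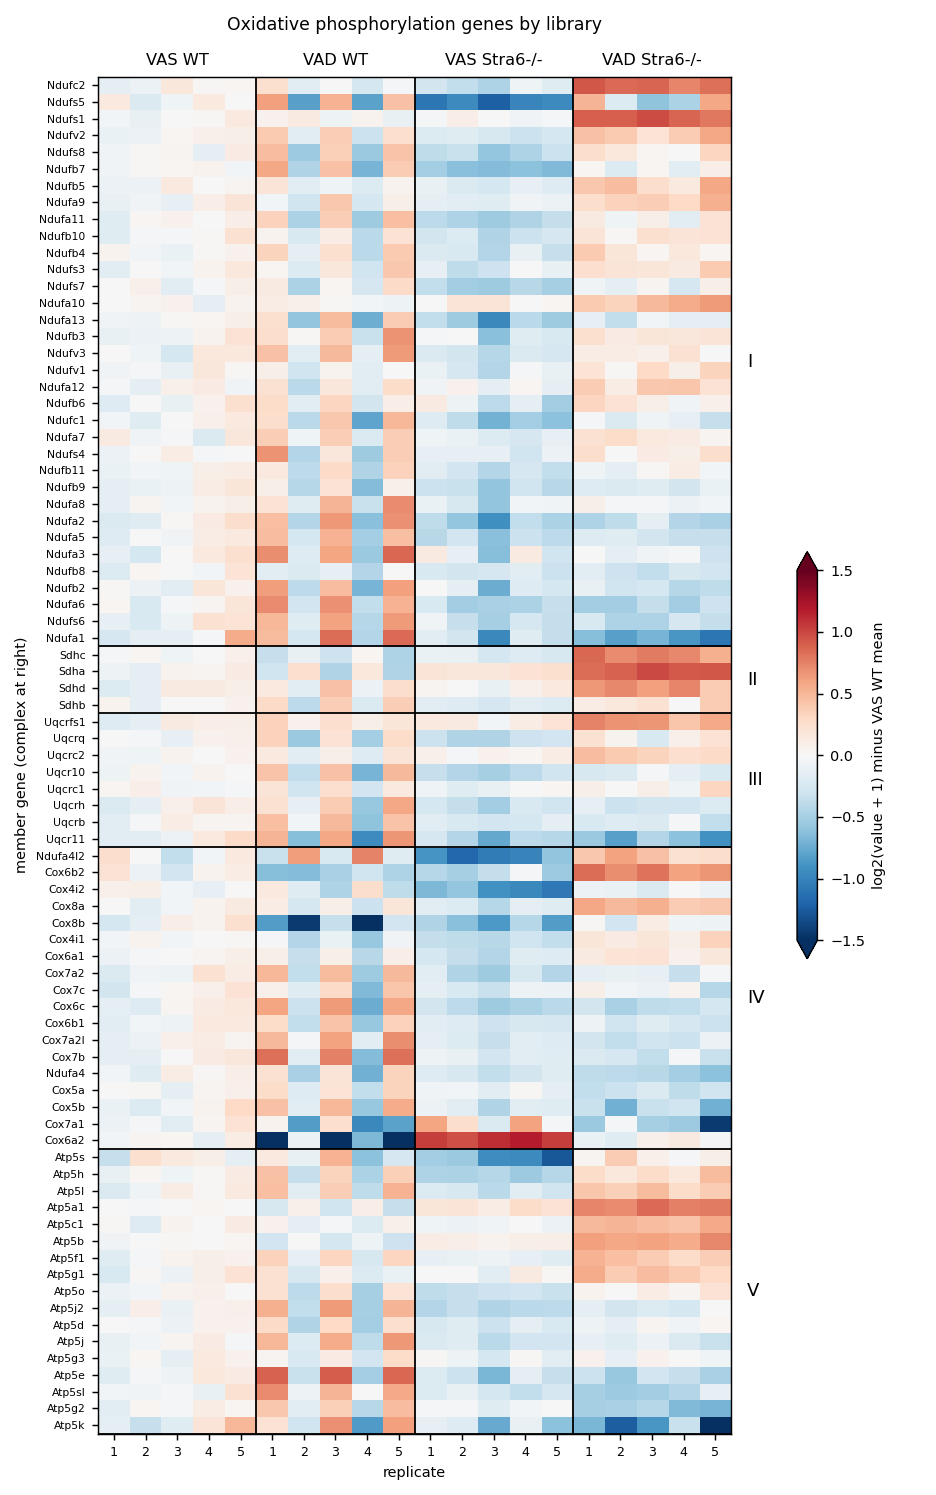
Heat map of the genes, with 1 left out (rows, grouped by complex I to V and ordered by their difference between the diets in Stra6-/-) in 20 libraries (columns, 5 replicates in each of 4 groups). Color is log2(value + 1) minus the VAS WT mean of the gene, limited to the range of the bar. Replicates 2 and 4 labelled VAD WT are below the VAS WT mean for most genes and replicates 1, 3 and 5 above it, while Sdha, Sdhc, Ndufs1, Ndufc2, Atp5a1 and Atp5b are above it in all 5 libraries labelled VAD Stra6-/-.

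On the VAS diet, most of these genes had lower mean levels in Stra6-/- than in WT mice. A minority of them passed the test in the fit over all groups. Of the 82, 18 were lower and 1 was higher in VAS Stra6-/- than in VAS WT at an adjusted p under 0.05 (limma), where 26.7% of all 18745 genes tested passed, 15.9% higher and 10.8% lower. Among the 12299 genes with a mean value of at least 100, a limit set after the data were seen and exceeded by all 82 genes, 36.4% passed, 22% higher and 14.4% lower. The median log2 fold change was -0.25, against 0.018 over all genes tested. Many of the 82 transcripts are short. In 3 groups of them by transcript length, shortest first, the medians were -0.32, -0.30 and -0.13. Other genes with a mean of at least 100 and lengths in the same ranges had medians of -0.26, -0.20 and -0.052. Of these others, 1.57%, 5.03% and 14.4% were higher and 18.1%, 24.5% and 17.1% lower. The part of length was not tested. Of the 82 genes, those that fell were 9 of complex I, 6 of complex IV and 3 of complex V. The count depended on the fit: with replicates 2 and 4 labelled VAD WT left out of the shared estimate of spread, 50 fell and 4 rose (background 40.1%, of which 22.5% higher and 17.6% lower), and with only these 2 groups 49 fell and 4 rose (background 43.8%, of which 24.2% and 19.6%), the fold changes being the same in all 3 fits. Without VAS WT replicate 5 only 8 fell (background 22.9%). Without VAS WT replicate 4 or VAS Stra6-/- replicate 3 it was 10 (background 24% and 22.9%), and without replicate 4 labelled VAD WT it was 33 (background 29.8%).

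Few of them passed between the libraries labelled VAD WT and those of VAS WT. Cox6a2, Cox8b and Cox6b2, all tissue-restricted forms of complex IV subunits, were lower in the former, and 0 genes were higher in the limma fit (3 at an unadjusted p under 0.05, and 0 by edgeR and by DESeq2). The background was 8.81%, of which 3.29% higher and 5.52% lower, or 12.2% (4.64% and 7.54%) of genes with a mean of at least 100, and the median over the 82 genes was 0.027 (0.0030 over all genes tested). This comparison rested on the 2 libraries labelled VAD WT that stood apart. Without them, 50 genes rose and 7 fell (background 38%, of which 17.7% higher and 20.4% lower), the median was 0.28, and the 50 included 22 of 35 genes of complex I and all 8 of complex III. With only the 2 groups in the fit, 0 were called in either direction by limma (0 higher and 4 lower at an unadjusted p under 0.05; background 3.36%, of which 1.03% and 2.33%).

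Against those labelled VAD WT, the libraries labelled VAD Stra6-/- had 25 genes higher and 18 lower, with a median of 0.0056 (-0.054 over all genes tested) and a background of 56.1%, of which 26.3% higher and 29.7% lower. Among genes with a mean of at least 100 it was 69.2% (34.3% and 35%). The 43 called genes are 52.4% of the 82, which is not above either background. By complex the counts were 9 higher and 5 lower in complex I, 3 of 4 higher in complex II, 2 and 2 in complex III, 6 and 6 in complex IV, and 5 and 5 in complex V. Without replicates 2 and 4 labelled VAD WT, 21 were higher and 44 lower (background 63.4%, of which 30.8% higher and 32.6% lower) and the median was -0.21. The number lower was also 10 without replicate 1, 3 or 5 labelled VAD WT (background 53.8%, 53.4% and 54%). With only the 2 groups in the fit it was 9 (background 47.5%, of which 22.4% higher and 25.1% lower).

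Between diets in Stra6-/-, most of the genes were higher in the libraries labelled as deficient. In the libraries labelled VAD Stra6-/-, 44 were higher and 3 lower than in VAS Stra6-/-, against a background of 53.4%, of which 24.5% higher and 28.9% lower, or 67% (32.9% and 34.1%) of genes with a mean of at least 100. The median was 0.34, against -0.067 over all genes tested. All 7 catalytic core subunits of complex I and all 4 subunits of complex II were among the genes that rose, with 14 of 28 accessory subunits of complex I, 3 of 8 genes of complex III, 7 of 18 of complex IV and 9 of 17 of complex V. Leaving out replicates 2 and 4 labelled VAD WT gave 54 higher and 8 lower (background 60.9%, of which 28.4% higher and 32.5% lower), and fitting only the 2 groups gave 53 higher and 7 lower (background 62.5%, of which 29.5% and 33%). The genotype-by-diet interaction is the difference, by the labels, between this diet effect and that in WT. It was positive for 33 genes and negative for 2, with a median of 0.32. The background was 44.4%, of which 19.6% positive and 24.9% negative, or 57.1% (26.2% and 31%) of genes with a mean of at least 100. Without replicates 2 and 4 labelled VAD WT the interaction was positive for 29 and negative for 24 (background 54.9%, of which 25.8% and 29.1%) and its median 0.079. These comparisons share groups, so their counts are not independent of each other.

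**Figure D2:**
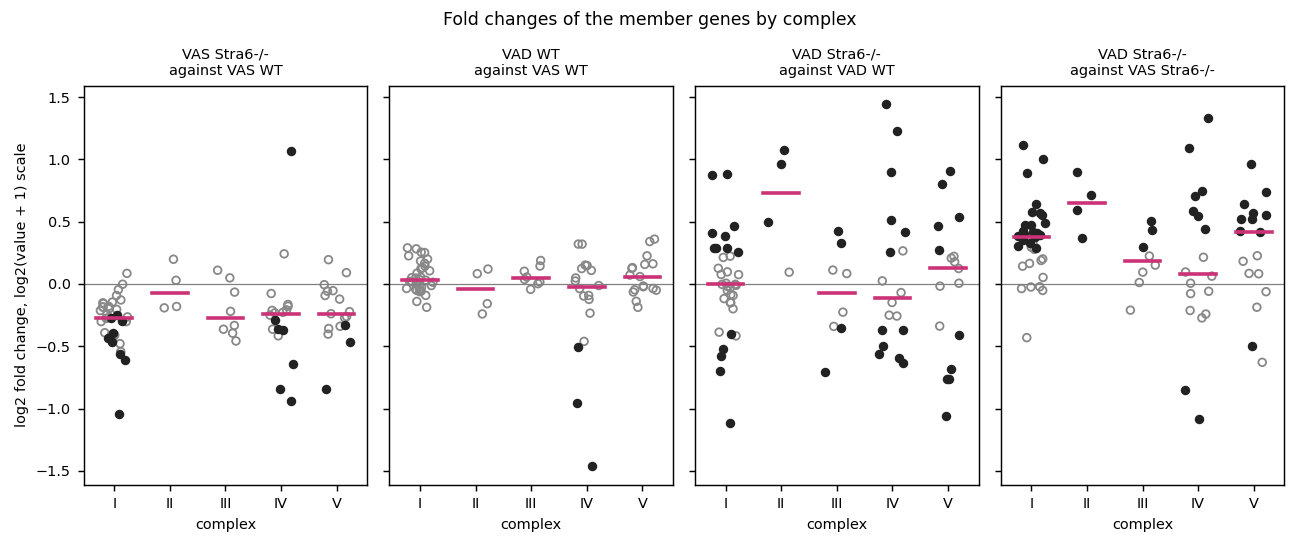
Log2 fold change of each of the 82 genes on the log2(value + 1) scale (vertical axis) by complex (horizontal axis) in the 4 comparisons. Filled points passed an adjusted p under 0.05 (limma), open points did not, and the red bar is the median of the complex. Complex II stands at 0.73 in the third panel and 0.65 in the fourth, with all 4 genes above 0 in both.

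Complex I oxidizes NADH through a core of 7 nuclear-encoded catalytic subunits, with a larger number of accessory subunits around it. Ndufs1, the largest core subunit, which carries iron-sulfur clusters, had values of 1129, 1075, 1155, 1178 and 1287 in VAS WT, 1220.2, 1274, 1102, 1208 and 1076 in those labelled VAD WT, 1141, 1242, 1155, 1122 and 1149 in VAS Stra6-/- and 2162, 2172, 2297, 2137 and 2013 in the libraries labelled VAD Stra6-/-. The last group lay above all 15 other libraries, which overlapped with each other. The log2 fold change was 0.88, SE 0.063, adjusted p = 1.58e-10 against those labelled VAD WT and 0.89, SE 0.063, adjusted p = 1.06e-10 against VAS Stra6-/-, and without replicates 2 and 4 labelled VAD WT the former was 0.93. Ndufv1, the subunit that binds NADH, differed less: its mean was 2232 ± 249 in VAS Stra6-/- and 2892 ± 264 in the libraries labelled VAD Stra6-/-, 0.38, SE 0.091, adjusted p = 0.00135. Over the 7 core subunits the median between the diets in Stra6-/- was 0.42, and 4 of the 7 were also higher against those labelled VAD WT.

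Among the accessory subunits of complex I, Ndufc2 had the largest rise in both comparisons of the libraries labelled VAD Stra6-/-. Its values were 776, 725, 680.2, 899 and 828 in VAS Stra6-/- and 1790.4, 1697, 1721, 1562 and 1668 in the libraries labelled VAD Stra6-/-, with 859, 886, 1057, 953 and 957 in VAS WT and 1108, 838, 944, 783 and 920.3 in those labelled VAD WT. No library of the other 3 groups reached the level of the lowest of these 5. The difference (log2) was 1.11, SE 0.091, adjusted p = 9.12e-10 between the diets and 0.89, SE 0.091, adjusted p = 3.54e-08 against those labelled VAD WT, and on the VAS diet Ndufc2 was lower in Stra6-/- (-0.27, SE 0.091, adjusted p = 0.0296).

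Ndufs5, a subunit of the intermembrane space side, was the member that fell most in VAS Stra6-/-. It had 1517, 1180.1, 1309, 1524 and 1361 in VAS WT and 649, 707, 587, 687 and 706 in VAS Stra6-/-, with no overlap (-1.04, SE 0.26, adjusted p = 0.00531). In the deficient groups it fell into separate levels within a group: 1863 to 2100 in replicates 1, 3 and 5 labelled VAD WT but 783 and 785 in replicates 2 and 4, and 1951 and 2049 in replicates 1 and 5 labelled VAD Stra6-/- but 905 to 1191 in replicates 2 to 4. The difference between the diets in Stra6-/- was called (1.00, SE 0.26, adjusted p = 0.00287), and the one against those labelled VAD WT was -0.031 with all libraries and -0.56 without replicates 2 and 4 labelled VAD WT (adjusted p = 0.94 and 0.015, limma).

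Ndufa1, a short membrane subunit encoded on chromosome X (37187588 to 37191163, GRCm38, minus strand), was the member of complex I that fell most against those labelled VAD WT. Its values were 1323, 792, 1711, 704 and 1714 in those labelled VAD WT and 614, 541, 589.6, 521 and 448 in the libraries labelled VAD Stra6-/-. The latter were all below the former, also below replicates 2 and 4 of those labelled VAD WT (-1.11, SE 0.22, adjusted p = 0.000218). Against VAS Stra6-/- the difference did not pass (-0.43, SE 0.22, adjusted p = 0.112). The other 2 genes of this set on chromosome X are Cox7b and Ndufb11, and of them Cox7b was also lower against those labelled VAD WT (-0.56).

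Complex II, succinate dehydrogenase, consists of 4 nuclear-encoded subunits, and all of them rose between the diets in Stra6-/-. Sdha, the flavoprotein that oxidizes succinate, had 3459.6, 3280.0, 3776, 3734 and 3968 in VAS WT, 2954, 4315, 2657, 4054 and 2667 in those labelled VAD WT, 4148, 4102, 4086, 4228 and 4291 in VAS Stra6-/- and 6478, 6709, 7243, 6872 and 6954 in the libraries labelled VAD Stra6-/-. The last group was above all other libraries, and replicates 2 and 4 were the high ones among those labelled VAD WT, opposite to most of the 82 genes. The difference (log2) was 0.72, SE 0.11, adjusted p = 9.62e-06 between the diets and 1.07, SE 0.11, adjusted p = 3.28e-08 against those labelled VAD WT, the latter 1.31 without these replicates. Sdhc, which with Sdhd anchors the enzyme in the membrane and binds ubiquinone, had 1643, 1625, 1460.1, 1539 and 1493 in VAS Stra6-/- and 3202, 2870.2, 3028, 2888 and 2536 in the libraries labelled VAD Stra6-/- (0.90, SE 0.081, adjusted p = 4.86e-09). Its values of 1273 to 1793 in those labelled VAD WT and 1677 to 1848 in VAS WT were below those of all 5 libraries labelled VAD Stra6-/-. Sdhd rose by 0.59 and Sdhb, the iron-sulfur subunit, by 0.37 in the same comparison. Sdhb is the one that did not differ consistently from those labelled VAD WT: its log2 fold change there was 0.094 (adjusted p = 0.52) and turned to -0.17 (adjusted p = 0.029, limma) without replicates 2 and 4 labelled VAD WT.

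Complex III passes electrons from ubiquinol to cytochrome c. Uqcrfs1, the Rieske iron-sulfur protein, had 1775, 1764, 1559, 1731 and 1850.2 in VAS Stra6-/- and 2693, 2571, 2539.5, 2143 and 2389 in the libraries labelled VAD Stra6-/-, and the groups did not overlap (0.50, SE 0.081, adjusted p = 1.65e-05). The core proteins divided: Uqcrc2 was called higher (0.30), whereas Uqcrc1 was 4404 ± 264 and 4902 ± 505 (0.15, SE 0.10, adjusted p = 0.222). Uqcr11, a small accessory subunit, was the member of complex III that fell most against those labelled VAD WT. It had 3151, 1424, 3304, 1152 and 3491 in those labelled VAD WT and 1497, 1253, 1629.6, 1443 and 1174 in the libraries labelled VAD Stra6-/-, where the values overlap with those of replicates 2 and 4 labelled VAD WT but not of 1, 3 and 5. The log2 fold change was -0.70, SE 0.24, adjusted p = 0.0147 with all libraries, -1.25 without replicates 2 and 4, and not called with only these 2 groups in the fit (adjusted p = 0.10, limma).

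Complex IV, cytochrome c oxidase, reduces oxygen. Of its broadly expressed subunits, Cox4i1 and Cox8a rose between the diets in Stra6-/- and Cox5a and Cox5b did not pass. Cox4i1, which regulates the enzyme by binding ATP, had 9846, 10489, 9829, 10177 and 10269 in VAS WT, 7891, 7757, 7574, 8226 and 7861 in VAS Stra6-/- and 11462, 10989, 11472, 10746 and 12890.0 in the libraries labelled VAD Stra6-/-. The 3 groups did not overlap, with VAS Stra6-/- lowest, and the log2 fold changes were -0.36, SE 0.092, adjusted p = 0.00514 for VAS Stra6-/- against VAS WT and 0.55, SE 0.092, adjusted p = 3.1e-05 between the diets. Cox8a had 4811 ± 365 in VAS Stra6-/- and 7837 ± 469.5 in the libraries labelled VAD Stra6-/-, 0.71, SE 0.093, adjusted p = 1.34e-06. Cox6a1 rose by 0.44 in this comparison, and Cox6b1 (0.0055, SE 0.14, adjusted p = 0.989) and Cox7a2 (0.21, SE 0.17, adjusted p = 0.299) were not called. Against those labelled VAD WT, Cox5b fell most among genes of complex IV (-0.63, SE 0.17, adjusted p = 0.00329), and Cox5a fell by 0.37. Ndufa4 was 5222 ± 1590.1 in those labelled VAD WT and 3879 ± 257 in the libraries labelled VAD Stra6-/- (-0.37, SE 0.15, adjusted p = 0.0391), and this was not called with only the 2 groups in the fit (adjusted p = 0.17, limma). In WT, its difference between diets was -0.092 with all libraries and 0.25 without replicates 2 and 4 labelled VAD WT.

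In each comparison the largest difference among the 82 genes was that of a tissue-restricted form of complex IV, and these forms did not move as one. Cox6a2, the heart and skeletal muscle form of subunit 6a, had 312, 329, 328, 289.7 and 347 in VAS WT, 57.8, 302, 68.1, 200.3 and 85.8 in those labelled VAD WT, 656, 629.9, 693, 729 and 661 in VAS Stra6-/- and 299, 281, 337, 351 and 318 in the libraries labelled VAD Stra6-/-. VAS Stra6-/- was above all other libraries, and replicates 1, 3 and 5 labelled VAD WT were below all others. Its log2 fold change was 1.07, SE 0.30, adjusted p = 0.0109 for VAS Stra6-/- against VAS WT, -1.46, SE 0.30, adjusted p = 0.00293 for those labelled VAD WT against VAS WT, 1.45, SE 0.30, adjusted p = 0.000311 against those labelled VAD WT and -1.09, SE 0.30, adjusted p = 0.00412 between the diets in Stra6-/-. The call in WT was lost with only the 2 groups in the fit (adjusted p = 0.11), and without replicates 2 and 4 labelled VAD WT the fold change was -2.19 (limma). The summed value of 10 skeletal muscle genes, such as Acta1 and Myh4, followed its order in part: 11344 to 14337 in VAS WT, 3300.2 to 3455 in replicates 1, 3 and 5 labelled VAD WT, 13426 and 14305 in replicates 2 and 4, 29155 to 33398 in VAS Stra6-/- and 18803 to 22938 in the libraries labelled VAD Stra6-/-. Compared with VAS WT, the muscle sum of the last group was higher without overlap. The values of Cox6a2 in these groups overlapped. A separate list of 6 genes of slow or cardiac-type fibres, such as Myh7, summed to 450 to 611 in VAS WT and 274 to 495 in those labelled VAD WT. It summed to 760 to 830 in VAS Stra6-/- and 291 to 357 in the libraries labelled VAD Stra6-/-, the last below VAS WT. Of these 6 genes, 4 were above 0 in every library. All 10 skeletal muscle genes were above 0 in every library. The part of either list in the differences of Cox6a2 was not tested.

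Cox8b, the other form of heart and skeletal muscle, went another way. It had 583, 633, 749.9, 724 and 827 in VAS WT, 391, 258, 549, 188 and 572 in those labelled VAD WT, 509.9, 453, 383, 517 and 391 in VAS Stra6-/- and 706, 573, 755, 669.8 and 665 in the libraries labelled VAD Stra6-/-. It was thus lowest in replicates 2 and 4 labelled VAD WT and lower in VAS Stra6-/- than in VAS WT (-0.64, SE 0.22, adjusted p = 0.0348), where Cox6a2 and the muscle genes were higher. The difference between the diets in Stra6-/- was 0.58, SE 0.22, adjusted p = 0.0299. Cox7a1, another muscle form, was near the lower end at 40.6 to 170 in all libraries, and fell between the diets in Stra6-/- (-0.85, SE 0.27, adjusted p = 0.0121), with the groups overlapping.

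Cox6b2, the testis form of subunit 6b, had 341, 275, 239, 303 and 315 in VAS WT, 187, 186, 209, 238 and 212 in those labelled VAD WT, 216, 207, 228, 288 and 199.5 in VAS Stra6-/- and 523, 474, 515, 446 and 463 in the libraries labelled VAD Stra6-/-. All 5 of the last group were above all other libraries. The log2 fold change was 1.09, SE 0.12, adjusted p = 8.56e-08 between the diets in Stra6-/- and 1.23, SE 0.12, adjusted p = 1.53e-08 against those labelled VAD WT, and the interaction, at 1.60 ± 0.17 (SE), was the largest of the 82 genes. Between the diets in WT Cox6b2 was lower (-0.51, SE 0.12, adjusted p = 0.00862), a call that was lost with only the 2 groups in the fit (adjusted p = 0.053, limma).

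Cox4i2 and Ndufa4l2, forms known to be induced by low oxygen, were both lower in VAS Stra6-/- than in VAS WT. Ndufa4l2 had 297, 247, 191, 240.0 and 274 in VAS WT, 196, 381, 210.0, 416 and 217 in those labelled VAD WT, 133, 109, 119, 123 and 164 in VAS Stra6-/- and 328, 375, 336, 291 and 296 in the libraries labelled VAD Stra6-/-. VAS Stra6-/- was below all other libraries, and replicates 2 and 4 labelled VAD WT were above all others. The difference (log2) was -0.94, SE 0.19, adjusted p = 0.000985 against VAS WT and 1.33, SE 0.19, adjusted p = 5.5e-06 between the diets in Stra6-/-, the largest rise of the 82 genes there. Cox4i2 had 262, 264, 242, 229 and 251 in VAS WT and 155, 167, 132, 127 and 118 in VAS Stra6-/-, also without overlap (-0.84, SE 0.14, adjusted p = 0.000127), and was 233 ± 12.3 in the libraries labelled VAD Stra6-/- (0.74, SE 0.14, adjusted p = 0.000133). Hif1a, which encodes the oxygen-regulated subunit of a hypoxia factor, did not pass in VAS Stra6-/- (0.31, adjusted p = 0.24), while Epas1, which encodes a related factor, was higher (0.51, adjusted p = 5.24e-06, limma). The part of low oxygen or of mural cells, whose sum is given above, in the differences of Cox4i2 and Ndufa4l2 was not tested.

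**Figure D3:**
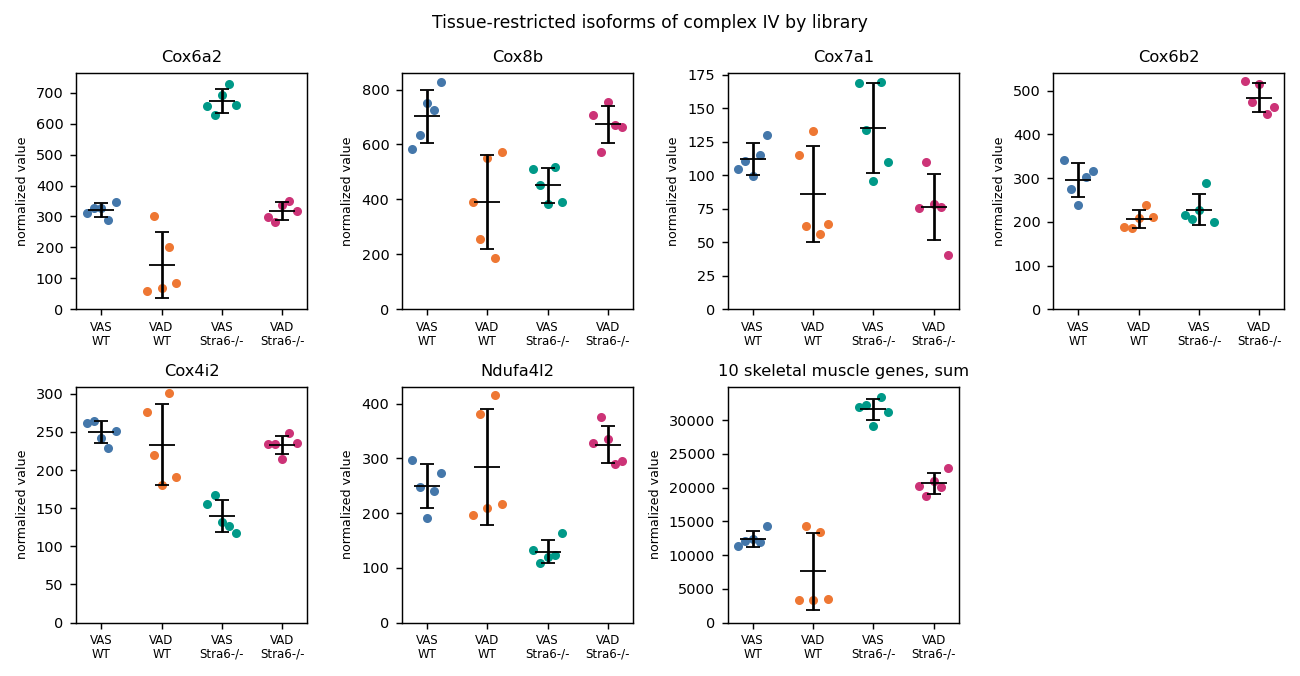
Normalized value (vertical axes, from 0) of 6 tissue-restricted forms of complex IV subunits and of the sum of 10 skeletal muscle genes in each library of the 4 groups. Points are libraries in replicate order, horizontal bars the mean and error bars the SD (n = 5). Cox6a2 and the muscle sum are both highest in VAS Stra6-/- and lowest in 3 libraries labelled VAD WT. In the libraries labelled VAD Stra6-/- the sum alone is above VAS WT, and Cox8b has another order.

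Complex V makes ATP in its catalytic head and is turned by a ring of c subunits in the membrane. Atp5a1 and Atp5b encode the alpha and beta subunits of the head and had the highest values of complex V. Atp5b had 15563, 16209, 16229, 16128 and 16361 in VAS WT, 13173, 16135, 13384, 15223 and 13021 in those labelled VAD WT, 17439.6, 17195, 16758, 17081 and 17221 in VAS Stra6-/- and 24560.3, 24071, 24426, 23613 and 26621 in the libraries labelled VAD Stra6-/-. The last group was above all others, without overlap. The log2 fold change was 0.80, SE 0.075, adjusted p = 9.02e-09 against those labelled VAD WT and 0.52, SE 0.075, adjusted p = 4.25e-06 between the diets in Stra6-/-, and for Atp5a1 0.90, SE 0.083, adjusted p = 6.55e-09 and 0.57, SE 0.083, adjusted p = 5.07e-06. The gamma subunit, Atp5c1, rose by 0.54 and 0.55 in these comparisons.

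The small subunits of the head and membrane parts differed from these. Atp5e, the epsilon subunit, fell by 0.76 against those labelled VAD WT and did not pass between the diets in Stra6-/- (-0.062, adjusted p = 0.84). Atp5k, the e subunit of the membrane part, had 809.9, 567, 1119, 386 and 1072 in those labelled VAD WT and 432, 296, 381, 552 and 200.4 in the libraries labelled VAD Stra6-/-, which overlap through replicate 4 labelled VAD WT alone (-1.06, SE 0.27, adjusted p = 0.00242). Atp5s, the assembly factor relative, had 131, 197, 184, 178 and 152 in VAS WT, 184, 153, 239.8, 108 and 139 in those labelled VAD WT, 116, 113, 86.4, 85.3 and 68.4 in VAS Stra6-/- and 171, 216, 176, 163 and 177 in the libraries labelled VAD Stra6-/-. VAS Stra6-/- was below VAS WT and the libraries labelled VAD Stra6-/- without overlap, but overlapped with those labelled VAD WT through replicate 4. The log2 fold change was -0.85, SE 0.20, adjusted p = 0.00294 against VAS WT and 0.96, SE 0.20, adjusted p = 0.000323 between the diets.

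The 3 genes of the c subunit, whose promoters are shown above, shifted against each other in the libraries labelled VAD Stra6-/-. Atp5g1 had 1569, 1869, 1728, 1949 and 2134 in VAS WT, 2161, 1553, 1934, 1595 and 1711 in those labelled VAD WT, 1839, 1829, 1631, 2019 and 1865 in VAS Stra6-/- and 2712, 2387, 2546, 2410.4 and 2258 in the libraries labelled VAD Stra6-/-, which were above all others. Atp5g2 had 3285, 3743, 3629, 3951 and 3749, 4847, 3288, 4701, 2753 and 5048, 3624, 3605, 3240.5, 3551 and 3645 and 2603, 2623, 2733, 2311 and 2254 in the same order, and its last group was below all others. Between the diets in Stra6-/-, Atp5g1 rose (0.42, SE 0.094, adjusted p = 0.000621), Atp5g2 fell (-0.50, SE 0.13, adjusted p = 0.0021) and Atp5g3 did not pass (0.082, SE 0.10, adjusted p = 0.5). The log2 ratio of Atp5g1 to Atp5g2, which needs no length, was -0.99 ± 0.11 in VAS WT, -1.18 ± 0.28 in those labelled VAD WT, -0.95 ± 0.074 in VAS Stra6-/- and -0.023 ± 0.091 in the libraries labelled VAD Stra6-/- (SD, n = 5). Per kilobase, Atp5g1 gave 5.72% ± 0.38, 5.33% ± 0.80, 5.96% ± 0.23 and 8.96% ± 0.26 of the sum of the 3 genes, and Atp5g2 51.9% ± 1.23, 54.5% ± 3.14, 52.4% ± 1.48 and 41.6% ± 1.996. These shares rest on median annotated transcript lengths of 2676 nt for Atp5g1, 586 nt for Atp5g2 and 719 nt for Atp5g3, which may not be the lengths of the transcripts present.

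**Figure D4:**
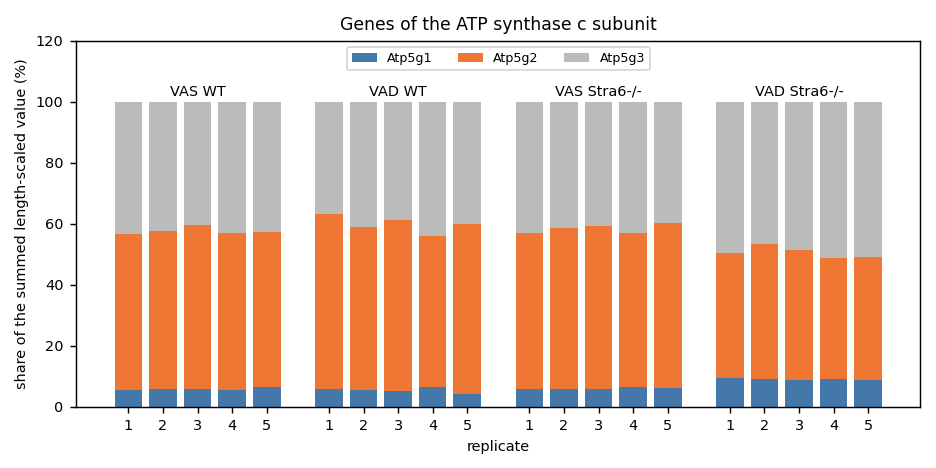
Share (%) of Atp5g1, Atp5g2 and Atp5g3 in the sum of their values per kilobase of transcript, stacked for each of the 20 libraries. In the 5 libraries labelled VAD Stra6-/-, Atp5g1 takes 8.70% to 9.38% and Atp5g2 39.6% to 44.5%, against 4.15% to 6.36% and 49.7% to 57.7% in the 15 others.

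Genes around the respiratory chain were counted from lists. Over all genes tested, 24.5% were higher and 28.9% lower between the diets in Stra6-/-, and 26.3% and 29.7% against those labelled VAD WT. Of 16 genes of the tricarboxylic acid cycle and pyruvate dehydrogenase, which supply its electrons, 13 were higher and 1 lower between the diets in Stra6-/-, with a median of 0.49. The gene that fell was Cs, citrate synthase (-0.75, SE 0.12, adjusted p = 1.31e-05). Against those labelled VAD WT, 14 of the 16 were higher and 1 lower. Of 14 assembly factors of complex I, 10 were higher and 0 lower between the diets in Stra6-/- by limma (12 and 1 without replicates 2 and 4 labelled VAD WT), and of 21 of complex IV, 8 were higher and 2 lower. Surf1, a complex IV assembly factor, had a log2 fold change of 0.85, SE 0.079, adjusted p = 7.82e-09, and Lrpprc, which stabilizes mitochondrial mRNAs, of 0.84, SE 0.09, adjusted p = 6.51e-08. Of 76 mitochondrial ribosomal protein genes 35 were higher and 3 lower in this comparison.

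Of 19 regulators of mitochondrial gene expression, 4 were higher and 10 lower between the diets in Stra6-/-, with a median of -0.28 and the same background of 24.5% higher and 28.9% lower (32.9% and 34.1% of genes with a mean of at least 100). Ppargc1a, the coactivator PGC-1alpha, had 209, 210.5, 179, 206 and 208 in VAS WT, 84.9, 264, 90.8, 256 and 71.5 in those labelled VAD WT, 236, 313, 329, 310.0 and 265 in VAS Stra6-/- and 688, 804, 665, 779 and 791 in the libraries labelled VAD Stra6-/-. It was highest in the last group without overlap (1.36, SE 0.27, adjusted p = 0.000238). Tfam, which packages and transcribes mitochondrial DNA, also rose (0.66), whereas Esrra, the nuclear receptor ERR alpha (-0.75, SE 0.14, adjusted p = 0.000148), Ppargc1b (-0.90) and Perm1 (-2.74, SE 0.29, adjusted p = 5.58e-08), a muscle regulator of the same pathway, fell.

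Many of these transcripts are short. Their log2 fold changes went with length against those labelled VAD WT, described first, and also in VAS Stra6-/- against VAS WT. The median transcript length was 737 nt over the 82 genes, 772.5 nt over cytosolic ribosomal protein genes and 2592.5 nt over all genes tested with a length. The 82 genes were divided into 3 groups by length. Among those with the shortest transcripts (28 genes, 321.5 to 599 nt), the libraries labelled VAD Stra6-/- had 5 higher and 11 lower against those labelled VAD WT, with a median of -0.24. Of 127 other genes with a mean value of at least 100 and a length in this range, 15.7% were higher and 63.0% lower. Among those with the longest transcripts (27 genes, 1001 to 2900.0 nt), 16 were higher and 3 lower, with a median of 0.29. Of 5304 other genes in this range, 36.9% were higher and 32.2% lower. Across the 82 genes, which are not independent and share their libraries, Spearman's rho between length and log2 fold change was 0.44 and Pearson's r, with length on the log2 scale, 0.42. Over 11650 other genes with a mean value of at least 100 they were 5.1e-05 and 0.028. The medians of these other genes were -0.76, -0.16 and 0.044 within the same 3 length ranges. Cytosolic ribosomal protein genes were lower in 77 of 83 cases tested in this comparison, with a median of -1.08, and their summed value was 594035 to 681963 in the libraries labelled VAD Stra6-/-. Without replicates 2 and 4 labelled VAD WT, the group of the shortest had 4 higher and 20 lower and that of the longest 13 higher and 8 lower. Between the diets in Stra6-/-, the medians of the groups of shortest and longest transcripts were 0.12 and 0.42. Spearman's rho there was 0.31 over the 82 genes and -0.21 over the 11650 others. In VAS Stra6-/- against VAS WT it was 0.43 over the 82 genes and 0.35 over the 11650 others. Whether length or RNA quality had a part in these differences was not tested.

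**Figure D5:**
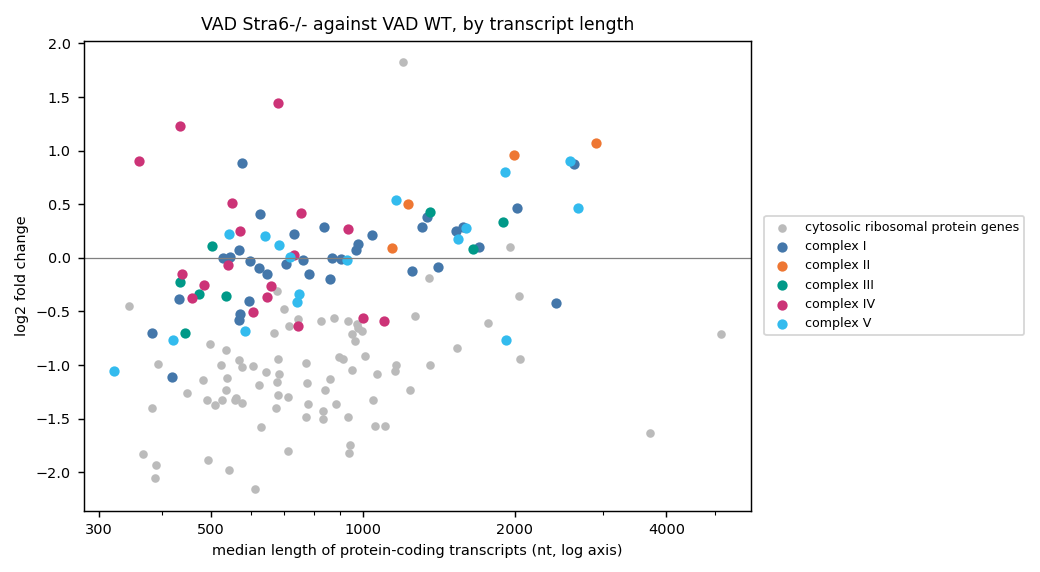
Log2 fold change of the libraries labelled VAD Stra6-/- against those labelled VAD WT (vertical axis) by median length of protein-coding transcripts (horizontal axis, nt, log scale) for the 82 genes, colored by complex, and for cytosolic ribosomal protein genes in grey. Genes with short transcripts extend to -1.11 (Ndufa1), and Sdha, the longest at 2900.0 nt, stands at 1.07.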

How the data were processed

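RNA-seq data of 20 outer eyecup samples (RPE and choroid of C57BL/6 mice, 5 per genotype and diet) were processed. For alignment the authors used STAR 2.5.3a, and RSEM 1.2.30 gave their gene counts. The submitters' notes name GRCm38. The deposited signal is a gene count divided by 1 size factor per library, for which the notes name DESeq2 1.32.0, without length or log scaling. Dividing by the lowest value above 0 recovered whole reads in 19 libraries (100% of values above 0, to within 0.02 reads), which the count-based alternatives used. There edgeR called 4888, 1530, 9945 and 9462 genes in the 4 comparisons, in the order of the results, and 7954 in the interaction. For replicate 1 labelled VAD Stra6-/- recovery was not claimed, and those alternatives leave it out.

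Genes with a summed value of at least 5 were tested with limma 3.58.1 (R 4.3.3) on log2(value + 1), with group means for all 4 groups, the trend option of eBayes and Benjamini-Hochberg adjustment over all 18745 genes. A gene was called at an adjusted p under 0.05, and all fold changes are on this scale, where the added 1 understates changes of low values. The model was tested on simulated data. Alternatives were pseudocounts of 0.5 and 4, TMM rescaling, no filter, a mean value of at least 10, edgeR 4.0.16 and DESeq2 1.42.0 on recovered reads, only the 2 groups compared, the replicate number as a block, leaving out each library, and leaving out replicates 2 and 4 labelled VAD WT together.

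Transcript lengths are medians over protein-coding transcripts of GENCODE vM21, and promoter windows come from RefSeq (GRCm38.p6). Genes were named by rule: in each comparison and complex the called gene with the largest change in each direction, tissue-restricted forms of complex IV with their partners, the core subunits Ndufs1, Ndufv1, Sdha, Sdhb, Uqcrc1, Uqcrfs1, Cox5a, Atp5a1 and Atp5b, and the c subunit genes. The genes studied, the lists around them and these rules were chosen with earlier results of these data known, and other genes named, which are Sdhd, Uqcrc2, Cox7b, Ndufb11, Atp5c1, Atp5e and genes of the surrounding lists, were chosen after their values were seen. No replicate pair of a group agreed within sampling noise. Results of 2 genes are not reported here by name.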

Additional observations from a re-analysis of the deposited data

Results flagged for a closer look

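Of 100 groups of 5 libraries examined for a single distant value (25 quantities in 4 groups), 3 had one, where chance gives about 1 in 20. All were in VAS Stra6-/-: replicate 3 was the lowest for Cox8a (4171, next 4870.35) and for Atp5g2 (3240.5, next 3551), and replicate 2 was the highest for Ndufs1 (1242, next 1155).

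By the labels, the effect of the diet differed between the genotypes for 15 of the 24 genes named in every comparison (interaction term of limma). Over all genes tested, 44.4% passed in the interaction, and 57.1% of genes with a mean of at least 100. The group labelled VAD Stra6-/- goes against its label in Stra6, so genotype and diet are as labelled only. As log2 values, the difference (effect in Stra6-/- minus effect in WT) was 0.87 for Cox4i2, 1.60 for Cox6b2, 1.54 for Cox8b, 1.21 for Ndufa4l2, 0.78 for Cox4i1, 0.54 for Cox6a1, 0.74 for Cox8a, 0.88 for Ndufs1, 0.44 for Ndufv1, 0.87 for Sdha, 0.32 for Uqcrfs1, 0.71 for Atp5a1, 0.71 for Atp5b, 0.47 for Atp5g1 and -0.63 for Atp5g2. The adjusted p ran from 5.89e-08 for Ndufs1 and 8.96e-08 for Cox6b2 to 0.028 for Uqcrfs1, and that of Uqcrfs1 was 0.060 without replicates 2 and 4 labelled VAD WT.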

How the results depend on the processing

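The limits lie in the libraries: replicates 2 and 4 labelled VAD WT widen the shared estimate of spread and set the mean of their group, the VAS groups differ in sex-linked transcripts, and the group labelled VAD Stra6-/- goes against its label in Stra6. Leaving out replicates 2 and 4 labelled VAD WT changed the number of genes called to 4 higher and 50 lower for VAS Stra6-/- against VAS WT, 50 higher and 7 lower for those labelled VAD WT against VAS WT, 44 lower for the libraries labelled VAD Stra6-/- against those labelled VAD WT, 8 lower between the diets in Stra6-/- and 24 negative in the interaction. It also reversed Ndufa4 in those labelled VAD WT against VAS WT (0.251) and Sdhb against those labelled VAD WT (-0.166). With only the 2 groups in the fit, the counts were 4 higher and 49 lower for VAS Stra6-/- against VAS WT, 0 lower for those labelled VAD WT against VAS WT (limma, with 4 at an unadjusted p under 0.05), 9 lower against those labelled VAD WT and 7 lower between the diets in Stra6-/-.

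Leaving out 1 library at a time, the counts ranged for VAS Stra6-/- against VAS WT from 1 to 2 higher and 8 to 33 lower, for those labelled VAD WT against VAS WT from 0 to 6 higher and 3 to 5 lower, against those labelled VAD WT from 20 to 28 higher and 10 to 27 lower, between the diets in Stra6-/- from 41 to 47 higher and 3 to 5 lower, and in the interaction from 28 to 38 positive and 1 to 10 negative. The pseudocounts, TMM rescaling, both filters, edgeR and DESeq2 kept every one of these counts within 1.5 times its main value. The share of all genes tested that passed also moved when 1 library was left out. In the same order of comparisons it ranged from 22.9% to 29.8%, 6.73% to 14.2%, 53.4% to 58.1%, 50.7% to 55.5% and 42.2% to 47.2%. The log2 fold changes of Stra6 kept their direction and call in every alternative.

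The replicate numbers did not pair the samples: the correlation of deviations between same-numbered samples of different groups was -0.23 to 0.14 and above 0.1 in 3 of 30 pairs. With the replicate number as a block the counts were 1 higher and 20 lower for VAS Stra6-/- against VAS WT, 0 and 3 for those labelled VAD WT against VAS WT, 25 and 17 against those labelled VAD WT, 43 and 3 between the diets in Stra6-/-, and 34 and 2 in the interaction, and it changed no call of a named gene.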
